A study of Mus with 4 samples.

Results

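The mitochondrial machinery that builds iron-sulfur clusters was examined for m6A peaks in interscapular brown adipose tissue (iBAT), with and without the m6A writer subunit WTAP in brown adipocytes. It was represented by 9 genes, *Nfs1*, *Iscu*, *Hscb*, *Glrx5*, *Isca1*, *Isca2*, *Iba57*, *Nfu1* and *Bola3*, which were selected by symbol from the peak lists of the study. Peaks were listed on 6 of the 9 genes, among 11431 genes with a peak in either list. The group was selected with the presence, position and strength of its peaks in both lists known, so these values are a description and were not tested.

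The study comprised 4 sequenced samples of C57BL/6 iBAT from mice that were 8 weeks old and fed normal chow. An m6A immunoprecipitate (IP) and its input came from *Wtap* flox/flox mice, which carry the floxed *Wtap* allele and served as controls. The same pair of samples came from *Wtap*-BKO mice, which carry the same floxed allele together with *Ucp1*-iCre, so that recombination is confined to cells that express *Ucp1* and other cells of the tissue keep *Wtap*. Each sample was pooled from 8 mice, and there was 1 pool per genotype and fraction, so the difference between genotypes has no replicate check. MeRIP-seq enriches RNA fragments with an antibody against m6A, and a stretch with more IP reads than the input predicts is listed as a peak. The authors deposited 1 list per genotype, with 18400 peaks on 9732 genes for *Wtap* flox/flox mice and 18693 peaks on 9713 genes for *Wtap*-BKO mice. Read depth is unknown from the lists, and a missing peak means only that none passed the authors' false discovery rate (FDR) of 0.05. A more negative deposited log10 FDR means a more significant peak. Where no measure is named, "stronger" below refers to this value and not to fold enrichment, which can rank the same peaks in another order. The *Wtap* transcript had 4 peaks in each list, which do not measure how much of it is present and so do not check the genotype.

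Iron-sulfur clusters are cofactors of the respiratory chain and of lipoic acid synthesis, which makes their assembly central to a tissue as rich in mitochondria as brown fat. Assembly starts with NFS1, the desulfurase that takes sulfur from cysteine, and ISCU, the scaffold on which the first cluster forms. The co-chaperone HSCB helps to release that cluster to the glutaredoxin GLRX5, and ISCA1, ISCA2 and IBA57 then join small clusters into larger ones, which NFU1 and BOLA3 help to deliver to their target enzymes.

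The genes fell into 4 classes by the list that held a peak. *Nfs1*, *Iba57* and *Glrx5* had peaks in both lists, *Isca1* and *Iscu* only in control mice, and *Isca2* in *Wtap*-BKO mice alone. *Hscb*, *Nfu1* and *Bola3* had no peak in either list. Thus 2 of the 5 genes with a control peak had no *Wtap*-BKO peak, where the share over all such genes was 17.7%. Conversely 1 of the 4 genes with a *Wtap*-BKO peak had no control peak, where the share over all such genes was 17.5%. The control peaks covered 2131 exonic bases of the group in 7 peaks, and the *Wtap*-BKO peaks covered 1142 in 6. Of the control bases, 541 were in the 1 peak of *Isca1*. Over the whole lists the median peak had 240 bases in control mice and 210 in *Wtap*-BKO mice.

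**Figure D1:**
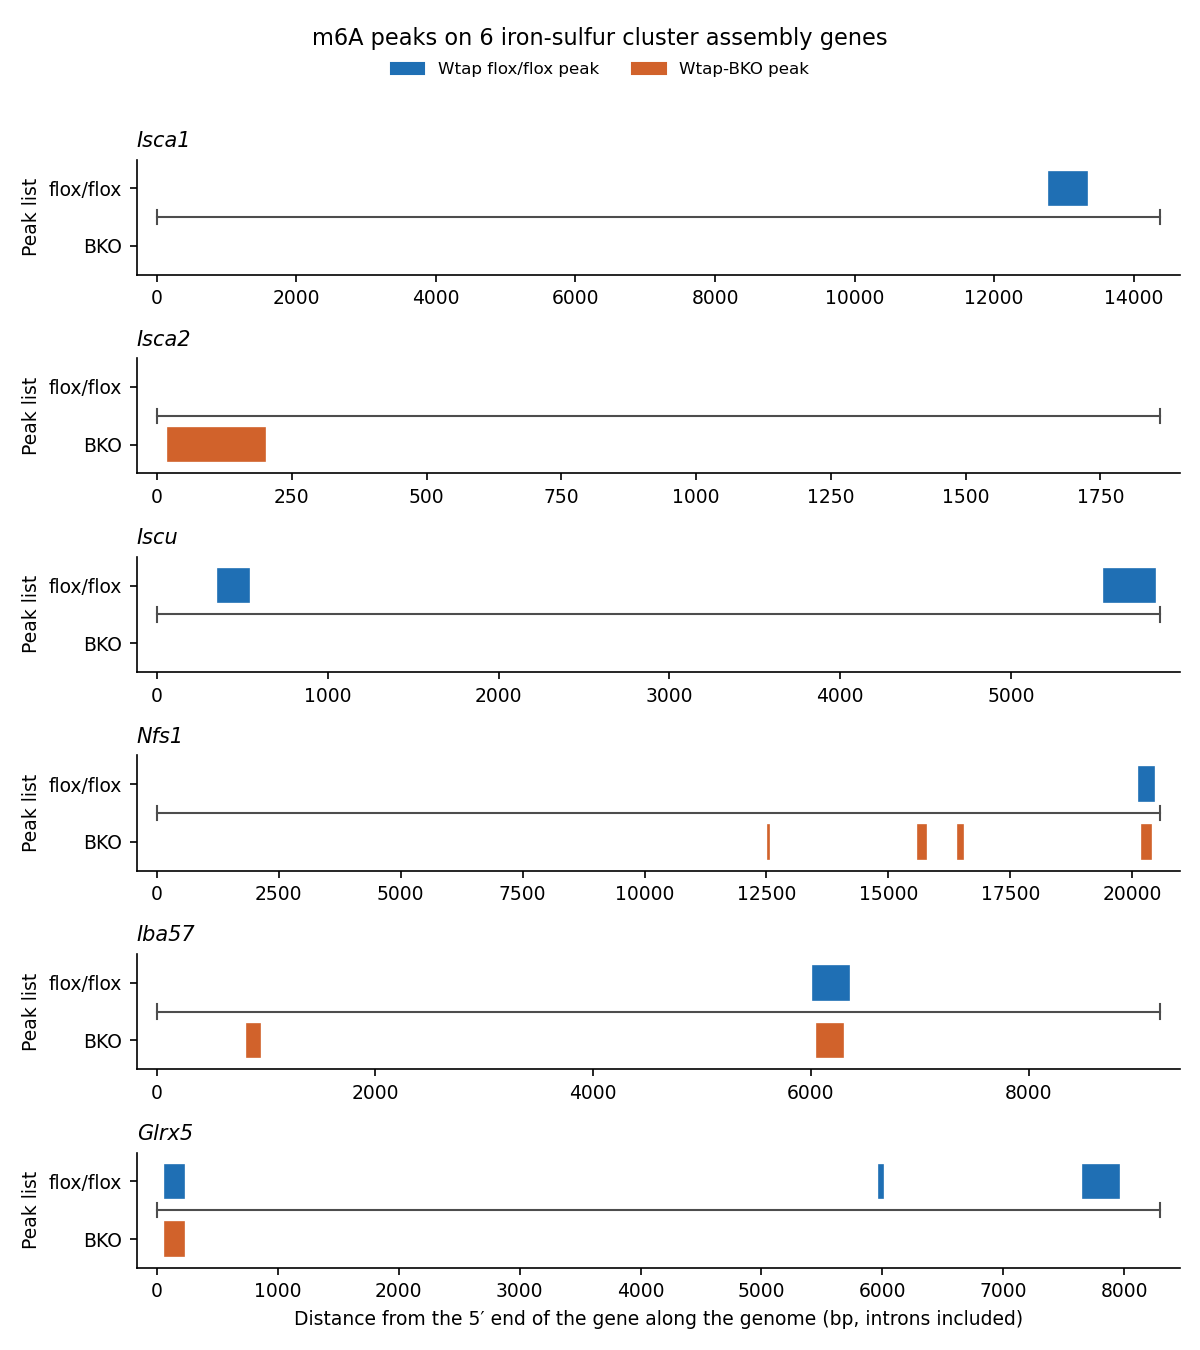
Each panel is 1 gene drawn to scale from its 5′ end (left) to its 3′ end (right) in bp of genome with introns included. Blue blocks above the line are control (*Wtap* flox/flox) peaks and orange blocks below it are *Wtap*-BKO peaks, and a spliced peak is drawn as several blocks. *Isca1* and *Iscu* carry blue blocks only, *Isca2* carries an orange block only, and the *Glrx5* blocks near the 5′ end coincide.

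Marker genes of macrophages and skeletal muscle had peaks more often in the *Wtap*-BKO list, while brown adipocyte markers had peaks about as often in both. The cell types that the authors name in this tissue do not include skeletal muscle. Of 10 brown adipocyte markers, all 10 had a control peak and 9 a *Wtap*-BKO peak, the exception being *Elovl3*. Thus 1 of 10 had no *Wtap*-BKO peak, where the share over all genes with a control peak was 17.7%. Their peaks numbered 29 and 23 in all, and *Prdm16* alone, named here after its values were seen, had 8 and 1, so that the other 9 markers had 21 and 22. Of 8 macrophage markers, 4 had a control peak and 7 a *Wtap*-BKO peak, with 5 and 16 peaks. Of 8 skeletal muscle markers, 2 and 7 had a peak, with 2 and 11 peaks, and *Adgre1* and *Ckm* had none in either list. Of the macrophage and muscle markers with a *Wtap*-BKO peak, 3 of 7 and 5 of 7 had no control peak. The share over all genes with a *Wtap*-BKO peak was 17.5%. In bulk tissue, fewer brown adipocytes and less of a transcript per cell cannot be told apart, and peak lists hold no transcript levels. The part of cell composition in the differences below was not tested.

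In the first steps of assembly, the desulfurase gene had a peak at the same site in both lists that ranked lower in *Wtap*-BKO mice, and the scaffold gene had peaks in control mice alone. *Nfs1* (ENSMUSG00000027618, minus strand of chromosome 2 of GRCm38) had 1 control peak of 300 bases, chr2:156123758-156124057, centred 270 bp from the 3′ end of the gene. Its fold enrichment of IP over input was 6.06 and its log10 FDR was −135, stronger than 97.1% of the control peaks. The *Wtap*-BKO list had a peak of 180 bases at the same centre, chr2:156123818-156123997, trimmed by 60 bases on either side. Its enrichment was 1.56, and its log10 FDR was −6.11, stronger than 49.0% of the *Wtap*-BKO peaks. The lists were made separately and their values share no scale, so ranks within a list were compared. By false discovery rate, the rank of *Nfs1* fell by 48.1 percentage points, and 3.91% of all 13772 overlapping pairs of peaks fell at least as far. By fold enrichment it went from above 46.6% of its list to above 2.3%. The same gene had a further *Wtap*-BKO peak in 3 blocks over chr2:156127676-156131668, of 16, 158 and 96 bases from 5′ to 3′, with an enrichment of 2.08 and a log10 FDR of −8.82. No control peak lay there.

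*Iscu* (ENSMUSG00000025825, plus strand of chromosome 5) had 2 control peaks, at opposite ends of the gene, and no *Wtap*-BKO peak. The peak near the 3′ end, chr5:113777960-113778258, covered 299 bases and was centred 179 bp from the end of the gene. It had an enrichment of 8.99 and a log10 FDR of −42.3, stronger than 87.1% of the list. The peak near the 5′ end, chr5:113772778-113772957, covered 180 bases and was centred 450 bp from the start. It was weak, with an enrichment of 3.60 and a log10 FDR of −2.99, stronger than 17.2% of the list. *Hscb*, the co-chaperone that acts on the scaffold, had no peak in either list, and the lists do not say whether its transcript was present in the input.

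*Glrx5* (ENSMUSG00000021102, plus strand of chromosome 12), which receives the cluster from the scaffold, had a peak at its 5′ end in both lists and a peak towards its 3′ end in control mice alone. The 5′ peak had the same boundaries in both lists, chr12:105032688-105032838, 151 bases centred 145 bp from the start of the gene. Such identity of blocks was found for 6.43% of all overlapping pairs. In control mice its enrichment was 15.0 and its log10 FDR −47.7, and in *Wtap*-BKO mice they were 5.71 and −89.7. By false discovery rate the peak therefore ranked higher in the *Wtap*-BKO list, above 97.0% of peaks against 88.7% in the control list, and 36.5% of all pairs rose at least as far. By fold enrichment the order was the other way, above 58.5% against 84.0%, so its rank rose or fell with the measure used. The 3′ peak, chr12:105038590-105040572, was spliced over blocks of 32 and 298 bases. The midpoint of its whole span, introns included, was 1330 bp from the end of the gene and fell between the blocks. Its block of 298 bases lay at chr12:105040275-105040572, and the gene ended at 105040911. This 3′ peak was listed in control mice alone, with an enrichment of 3.98 and a log10 FDR of −111, stronger than 96.1% of the list.

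Among the factors that make the larger clusters, *Isca1* (ENSMUSG00000044792, minus strand of chromosome 13) had the strongest peak of the group by false discovery rate. It lay at chr13:59756459-59756999, covered 541 bases, more than 87.4% of the control peaks, and was centred 1314 bp from the 3′ end of the gene. The log10 of its p-value was −578, which ranked 62 among the 18400 peaks of the list, and its false discovery rate was given as 0. Its enrichment of 7.39 was above that of 54.9% of the list, but below the 15.0, 12.8 and 8.99 of control peaks on *Glrx5*, *Iba57* and *Iscu*. No *Wtap*-BKO peak was listed on *Isca1*. Of the 147 control peaks with a false discovery rate of 0, 9 (6.12%) had no *Wtap*-BKO peak on them, and the peak of *Isca1* was the only 1 of the 147 on a gene without any *Wtap*-BKO peak. This is a description only, since *Isca1* was selected with the presence and strength of its peaks known. A *Wtap*-BKO peak assigned to another gene on the same strand, AC134869.1, had a block of 1 base inside the span of *Isca1*, away from the *Isca1* peak, and its other bases lay beyond the gene.

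*Isca2* (ENSMUSG00000021241, plus strand of chromosome 12), the partner of *Isca1*, showed the opposite presence. Its only peak was in the *Wtap*-BKO list, chr12:84773251-84773429, 179 bases centred 110 bp from the start of a gene that spans 1860 bp. The enrichment was 3.47 and the log10 FDR −6.67, stronger than 51.8% of the *Wtap*-BKO peaks. The paired proteins were thus encoded by transcripts whose peaks lay in different lists and at different ends of the gene.

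*Iba57* (ENSMUSG00000049287, minus strand of chromosome 11), which works with both, had a peak in each list at the same place. The control peak, chr11:59158216-59158545, covered 330 bases with an enrichment of 12.8 and a log10 FDR of −66.6, stronger than 92.4% of its list. The *Wtap*-BKO peak, chr11:59158275-59158515, lay wholly inside it, covered 241 bases, and had an enrichment of 4.32 and a log10 FDR of −13.3, stronger than 71.2% of its list. The rank by false discovery rate fell by 21.2 percentage points, and 17.0% of all overlapping pairs fell at least as far. As for *Nfs1*, that share counts pairs of every control rank and is background only. A second *Wtap*-BKO peak, chr11:59163619-59163739, lay 888 bp from the 5′ end with an enrichment of 10.2 and a log10 FDR of −3.64, and had no control peak on it. For the delivery factors *Nfu1* and *Bola3* no peak was listed, and the lists do not say whether these transcripts were present in the input.

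**Figure D2:**
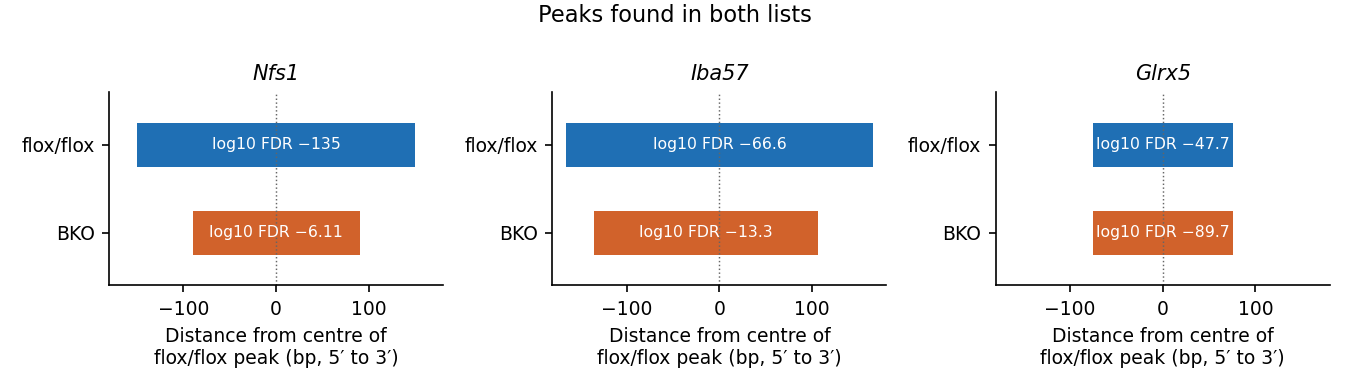
Bars show the extent of the peaks that overlapped between the lists, in bp from the centre of the control peak and read 5′ to 3′, with the log10 FDR of each peak printed on its bar. The *Wtap*-BKO peak is shorter on *Nfs1* (180 against 300 bases) and *Iba57* (241 against 330) and of equal extent on *Glrx5* (151).

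In the group, 3 of 7 control peaks shared at least 1 exonic base with a peak of the *Wtap*-BKO list, and 4 did not. Over the whole list 32.2% were not found. In the other direction 3 of 6 *Wtap*-BKO peaks were not found in control mice, where the share over that list was 32.0%. Presence in the lists was known when the genes were selected, and peaks of 1 gene share their transcript, so nothing is read from these shares. The overlapping *Wtap*-BKO peak was shorter and wholly inside the control peak for 2 of the 3 pairs, which was so for 39.0% of all pairs.

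The control peaks of the group were strong ones. A false discovery rate under 1e-40, a limit set after the values were seen, was reached by 6 of 7, where 13.8% of the whole list did so, and by 1 of 6 *Wtap*-BKO peaks, the 5′ peak of *Glrx5*, against 9.15% of that list. Of the 6 strong control peaks, those of *Isca1*, of *Glrx5* at its 3′ end and of *Iscu* at its 3′ end had no *Wtap*-BKO peak on them. Among all 2536 control peaks under this limit, 8.20% had none, which is given as background only, since the genes and the limit were both chosen with these values known. Conversely the *Wtap*-BKO peaks without a control peak, on *Nfs1*, *Iba57* and *Isca2*, had log10 FDRs between −8.82 and −3.64. The median control peak of the group stood above 92.4% of its list by false discovery rate and above 54.9% by fold enrichment, and the median *Wtap*-BKO peak above 56.1% and 41.1%. The high ranks in control mice were thus in the false discovery rate more than in the enrichment.

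**Figure D3:**
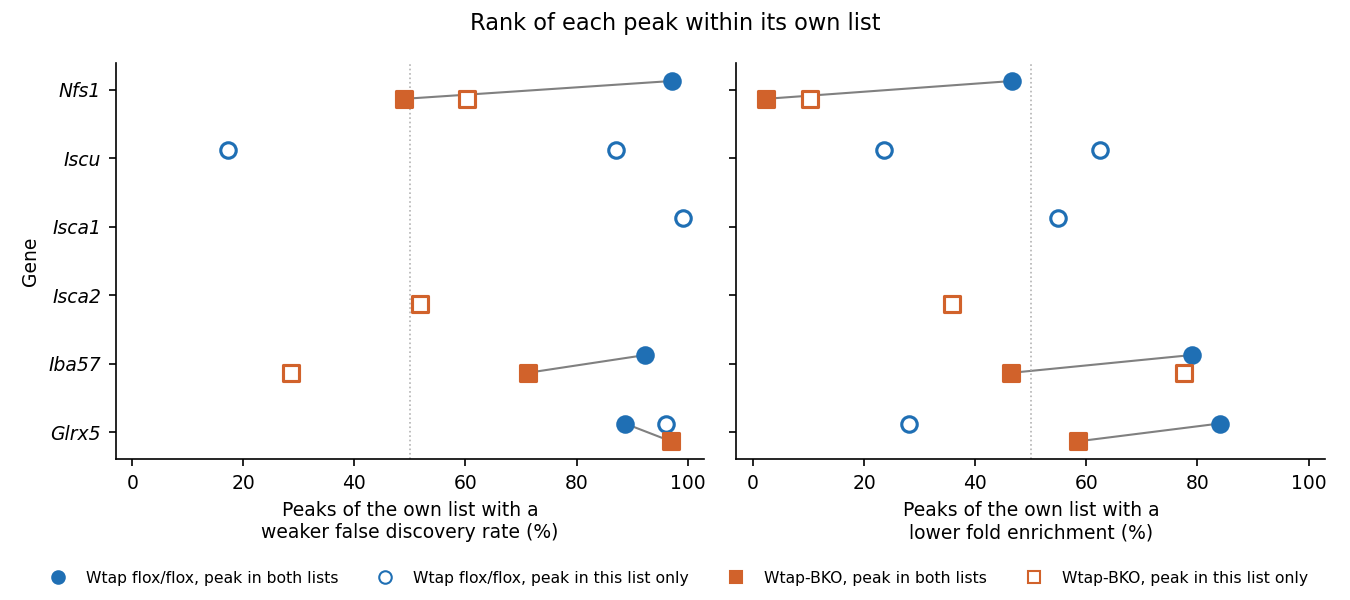
Points show the percentage of peaks in the same list that were weaker, by false discovery rate (left) and by fold enrichment (right), for each peak of 6 genes. Filled symbols joined by a line are overlapping peaks of the 2 lists and open symbols are peaks in 1 list only. On the left, 3 open circles stand at 87.1% or above for *Isca1*, *Iscu* and *Glrx5*, and no open square stands above 60.3%.

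The position of the peaks along the gene varied. Centres were midpoints of the genomic span, introns included. Of the 7 control peaks, 2 had their centre within 1000 bp of the 3′ end, those of *Nfs1* and *Iscu*. The share was 21.9% over the 15938 control peaks that lay inside their gene in the RefSeq table. The centres of the *Isca1* peak and the 3′ *Glrx5* peak lay at 1314 and 1330 bp. For this spliced *Glrx5* peak the centre fell between its blocks, and its block of 298 bases lay wholly within 1000 bp of the 3′ end. The count of 2 therefore depends on how the centre is defined. In the *Wtap*-BKO list, 1 of 6 peaks lay within 1000 bp of the 3′ end, against 19.7% of its 16136 peaks inside their gene. The *Wtap*-BKO peaks of *Isca2*, *Glrx5* and *Iba57* near the 5′ end were centred 110, 145 and 888 bp from the start. The overlapping peaks of *Iba57* lay near neither end, at 3012 and 3027 bp from the 3′ end, and neither did the spliced *Wtap*-BKO peak of *Nfs1*, at 6035 bp. None (0) of the 13 peaks shared bases with a listed peak of another gene on either strand, and all 13 lay inside the span of their gene in the RefSeq table.

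The wider iron-sulfur pathway and cellular iron handling were described with 4 further lists, 64 genes in all. Of these, 44 had a control peak, 11 of them without a *Wtap*-BKO peak (25%), and 41 had a *Wtap*-BKO peak, 8 of them without a control peak (19.5%). The shares over all genes were the 17.7% and 17.5% given above. Of the 13 control peaks of these genes with a false discovery rate under 1e-40, 2 had no *Wtap*-BKO peak on them, those of *Grpel1* and *Uqcrfs1*. The share over all control peaks under this limit was 8.20%.

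Among 15 partner and related genes of the mitochondrial machinery, 10 had peaks in both lists, 2 in control mice alone, 0 in *Wtap*-BKO mice alone and 3 in neither. Those in control mice alone were *Fdxr*, the reductase that supplies electrons through ferredoxin, and *Bola1*, a relative of *Bola3*. Their log10 FDRs were −19.3 and −4.10. *Hspa9*, the chaperone that works with HSCB, had 3 peaks in each list, the strongest with −142 and −92.0. *Grpel1*, its nucleotide exchange factor, had 3 and 2 peaks, and *Slc25a37*, an iron carrier of the inner membrane, had 3 in each. The strongest control peak of *Grpel1*, with a log10 FDR of −90.7 and an enrichment of 2.48, had no *Wtap*-BKO peak on it.

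Among 11 genes of the cytosolic assembly pathway, 6 had peaks in both lists, *Ciapin1* and *Nubp1* in control mice alone and *Ciao2a* in *Wtap*-BKO mice alone. Their log10 FDRs were −6.38, −1.78 and −4.78, each of below-median strength in its list (stronger than 44.4%, 1.1% and 39.8% of it). *Bola2* had 4 peaks in each list, but 2 of these 8 overlapped a listed peak of a different gene, so their assignment is uncertain.

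Among 28 proteins that carry iron-sulfur clusters, 11 had peaks in both lists, 5 in each list alone and 7 in neither. *Uqcrfs1*, the Rieske protein of complex III, had a control peak with a log10 FDR of −98.7 but an enrichment of only 1.70, and no *Wtap*-BKO peak. *Cisd1*, a protein of the outer mitochondrial membrane, had −38.2 and 2.05. The complex I subunits *Ndufs8* and *Ndufv2* had −5.31 and −3.76, and the DNA repair enzyme *Nthl1* had −2.71. In *Wtap*-BKO mice alone there were peaks on *Abce1*, *Sdhb*, *Fech*, *Brip1* and *Rtel1*, with log10 FDRs from −9.95 to −1.74. *Sdhb* is the iron-sulfur subunit of complex II and *Fech* the ferrochelatase of haem synthesis. *Etfdh* and *Ppat* had the most control peaks of the list, 3 each, with 5 and 1 in *Wtap*-BKO mice.

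Among 10 genes of cellular iron handling, 6 had peaks in both lists. *Slc11a2*, an iron importer, and *Tfrc*, the transferrin receptor, had peaks in control mice alone, with log10 FDRs of −9.61 and −3.93. *Ftl1*, the ferritin light chain, and *Hmox1*, haem oxygenase, had peaks in *Wtap*-BKO mice alone, with −54.0 and −6.11, and the *Ftl1* peak overlapped a listed peak of a different gene. *Slc40a1*, the iron exporter, and *Steap3* had the most control peaks, 2 each, against 2 and 1 in *Wtap*-BKO mice.

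**Figure D4:**
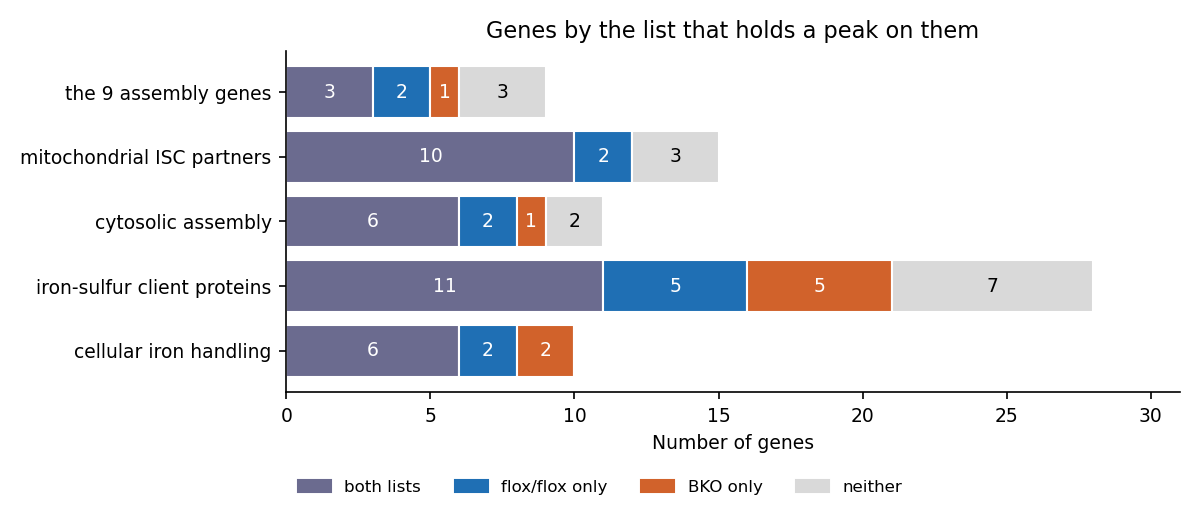
Bars count the genes of each list by where a peak was listed, in both genotypes, in control mice only, in *Wtap*-BKO mice only or in neither. The 9 assembly genes had 3, 2, 1 and 3 genes in these classes, and the 15 mitochondrial partner and related genes had 10, 2, 0 and 3.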

How the data were processed

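Peaks were read from the 2 lists that the authors deposited, each made from 1 IP and 1 input sample pooled from 8 mice and sequenced as 150 bp pairs. The submitters' processing notes name fastp 0.19.11, BWA 0.7.12, HOMER 4.9.1 and GRCm38.p6. The methods name MACS2 as the peak caller, while the spliced blocks have the layout of exomePeak, so the caller is not settled. The deposited columns give a p-value per peak, 2 scores (its log10 p and log10 FDR) and a fold enrichment, the ratio of IP to input inside a genotype, with its scaling for library size not given in the sources used here. Depth per sample is not known.

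Rows were selected by gene symbol, with older symbols for *Fdx2*, *Ciao2a*, *Ciao2b* and *Ciao3*. Starts were raised by 1 to count from 1, since 255 peaks then began at the first base of their gene, against 38 otherwise. Peaks of the 2 lists were matched by 1 or more exonic bases in common, strand included. The matching code was right for 18400 of 18400 peaks on a copy of the control list with peaks kept, shortened or removed. That checks the code only, not how well 2 separately made lists can be matched. Gene ends came from a RefSeq table of GRCm38.p6, in which 95.9% and 95.2% of matched peaks lay inside their gene. Python 3.11.15, numpy 2.4.6 and matplotlib 3.10.9 were used. No test was made between genotypes, which had 1 pool each. The genes and lists were chosen with earlier results of these data known. A few genes of the wider lists are not reported here and enter none of their counts. Named were all 9 genes and, from each further list, genes with peaks in 1 genotype only (up to 6 per genotype, by FDR) and those with the most control peaks. Alternatives were the overlap, the FDR limit, the window at gene ends, the ranking measure and matching by Ensembl identifier. Transcript models, sequences and motifs were not analysed here.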

Additional observations from a re-analysis of the deposited data

How the results depend on the processing

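Of 37 alternatives over 19 counts and medians, 33 stayed within 1.5 times the main value. With any peak on the same gene as the criterion, 5 of 6 *Wtap*-BKO peaks were found in control mice instead of 3. With a window of 2000 bp, 4 control and 2 *Wtap*-BKO peaks lay near the 3′ end, and the second *Wtap*-BKO peak was that of *Isca2*, whose whole gene is shorter than the window. Ranked by fold enrichment, the median peak stood above 54.9% and 41.1% of its list. For the 9 assembly genes, the counts of genes with peaks in both lists or in 1 list alone were the same under a false discovery rate of 1e-05 in both lists, while over the 64 genes of the wider lists those with a peak in control mice alone went from 11 to 10 and in *Wtap*-BKO mice alone from 8 to 6. The limit of 1e-40 was chosen after the data were seen, and with 1e-20 the count of strong control peaks missing from the *Wtap*-BKO list was also 3. No paired analysis was possible because each genotype has 1 pool, and no replicate could be left out. Without depth, a missing peak cannot be told from too few reads.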
